A study of Mus musculus with 37 samples.

Results

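Immediate early genes are transcribed within minutes of a growth factor, wound or stress signal, without new protein synthesis, and their mRNAs are usually short-lived. Many of them encode the proteins of AP-1, a dimer of a Fos family and a Jun family protein that binds DNA at promoters and enhancers of genes for growth, matrix turnover and inflammation. In urothelium, as in other epithelia, they are known to respond to injury and to mitogens.

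The genes described are 10 of the 24421 gene symbols in the count table, chosen by symbol: the Fos family genes Fos, Fosb, Fosl1 and Fosl2, the Jun family genes Jun, Junb and Jund, the stress-induced AP-1 partner Atf3, the zinc finger factor Egr1, and Ier2, an immediate early gene of less settled function. All 37 libraries came from WT female BALB/c mice. BBN (N-butyl-N-(4-hydroxybutyl)-nitrosamine), a bladder carcinogen, was given in drinking water for 18 weeks, from young adulthood, to 10 mice, and 3 mice drank tap water. UT denotes the ureter of the cancerous side after BBN (11 libraries, of which 2 came from mouse 5), UN the ureter of the noncancerous side after BBN (7), U the untreated ureter (6, both sides of 3 mice), BB the bladder after BBN (10) and B the untreated bladder (3). BB 6 carries a tumor letter in its library name, and bulk tissue was sequenced, so that fewer cells of a type and less RNA per cell cannot be told apart in any result given here.

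Library totals ran from 9724542 to 16735797 estimated counts in UT, from 4675081 to 14973904 in UN, from 12980008 to 18793560 in U, from 3557697 to 15104379 in BB and from 14348701 to 16617435 in B. In 5 libraries (UN 6, U 1R, BB 1, BB 3 and BB 4) the RNA integrity number (RIN) was under 5, and UN 6 and BB 3 held the lowest totals of their groups. The summed level of 15 urothelium markers was 49.3 CPM (a gene's share of its library's total count, scaled alike in every library) in UN 2, against a median of 6897 CPM over UN, so that the library labelled UN 2 held little urothelial RNA. Where leaving out the libraries of low RIN changed a call of the 10 genes, the value without them is given.

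On the GRCm38 genome, the genes lie apart, with Junb and Ier2 the nearest pair, on chromosome 8, which also holds Jund elsewhere. Fos lies at chr12:85473890-85477273, Fosl1 at chr19:5447547-5455946, Fosl2 at chr5:32135801-32157842, Jun at chr4:95049034-95052222, Junb at chr8:84974484-84978718 and Ier2 at chr8:84661331-84662852. Fosl1 overlaps Ccdc85b, and Junb overlaps Prdx2, on the opposite strand, and Jun, Jund and Atf3 overlap a noncoding gene there (Junos, Gm11175 and Gm24748). Whether the counting used strand is not given in the sources used here, so reads of these partners may be included in their values.

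RefSeq promoter windows (GRCm38.p6, the 250 bases before the RefSeq start, 5′ to 3′ on the gene's strand) were at hand for 7 of the 10 genes. These starts are not always those of the gene spans used above. The Jund window (chr8:70697489-70697738) ends well before its gene span (chr8:70698949-70700616), and the Fosl2 and Atf3 windows lie inside theirs. Of these 7 genes, 6, all but Jund, were called higher in both UN and UT, where 12.5% and 18.7% of all genes tested were. The 4 windows that hold the letters TGACG on either strand, the core shared with the cAMP response element TGACGTCA, are shown for this motif; those of Jun and Fosl2 do not hold it. Capitals mark TGACG or its reverse complement.
Fos (chr12:85473640-85473889, +): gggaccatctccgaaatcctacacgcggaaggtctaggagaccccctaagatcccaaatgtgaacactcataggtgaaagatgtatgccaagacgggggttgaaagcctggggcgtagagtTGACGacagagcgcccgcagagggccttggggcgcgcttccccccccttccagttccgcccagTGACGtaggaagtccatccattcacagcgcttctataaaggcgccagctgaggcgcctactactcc
Fosb (chr7:19310046-19310295, -): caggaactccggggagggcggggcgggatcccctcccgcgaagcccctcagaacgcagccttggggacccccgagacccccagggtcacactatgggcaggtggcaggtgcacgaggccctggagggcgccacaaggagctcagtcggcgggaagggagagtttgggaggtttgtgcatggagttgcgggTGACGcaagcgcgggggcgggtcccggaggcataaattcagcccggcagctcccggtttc
Junb (chr8:84978749-84978998, -): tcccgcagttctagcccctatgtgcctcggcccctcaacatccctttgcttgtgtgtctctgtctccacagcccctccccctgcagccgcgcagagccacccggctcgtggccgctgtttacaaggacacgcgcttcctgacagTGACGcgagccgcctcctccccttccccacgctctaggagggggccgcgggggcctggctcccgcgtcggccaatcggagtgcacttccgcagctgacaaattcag
Atf3 (chr1:191183334-191183583, -): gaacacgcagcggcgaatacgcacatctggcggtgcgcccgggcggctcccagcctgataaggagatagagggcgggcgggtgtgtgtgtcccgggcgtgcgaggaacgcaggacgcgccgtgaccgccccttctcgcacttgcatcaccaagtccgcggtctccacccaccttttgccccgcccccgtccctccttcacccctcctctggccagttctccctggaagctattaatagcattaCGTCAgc
TGACG was found in 4 of the 7 windows and in 17.7% of 32817 mouse windows of this length. The Fos window holds it at bases -129 to -125 and -66 to -62 from the start, the Fosb window at -60 to -56, the Junb window at -106 to -102 and the Atf3 window, on the other strand, at -7 to -3. The Fos window also holds TATAAA at -33 to -28, which 12.4% of all windows hold. The full TGACGTCA (1.55% of all windows), the AP-1 site TGACTCA (4.46%), the Egr1 site GCGTGGGCG (0.536%) and the serum response factor CArG box (1.47%) were searched on both strands and matched in none of the 7 windows. A match is a description of the letters, and no match says only that they are not in this window.

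**Figure D1:**
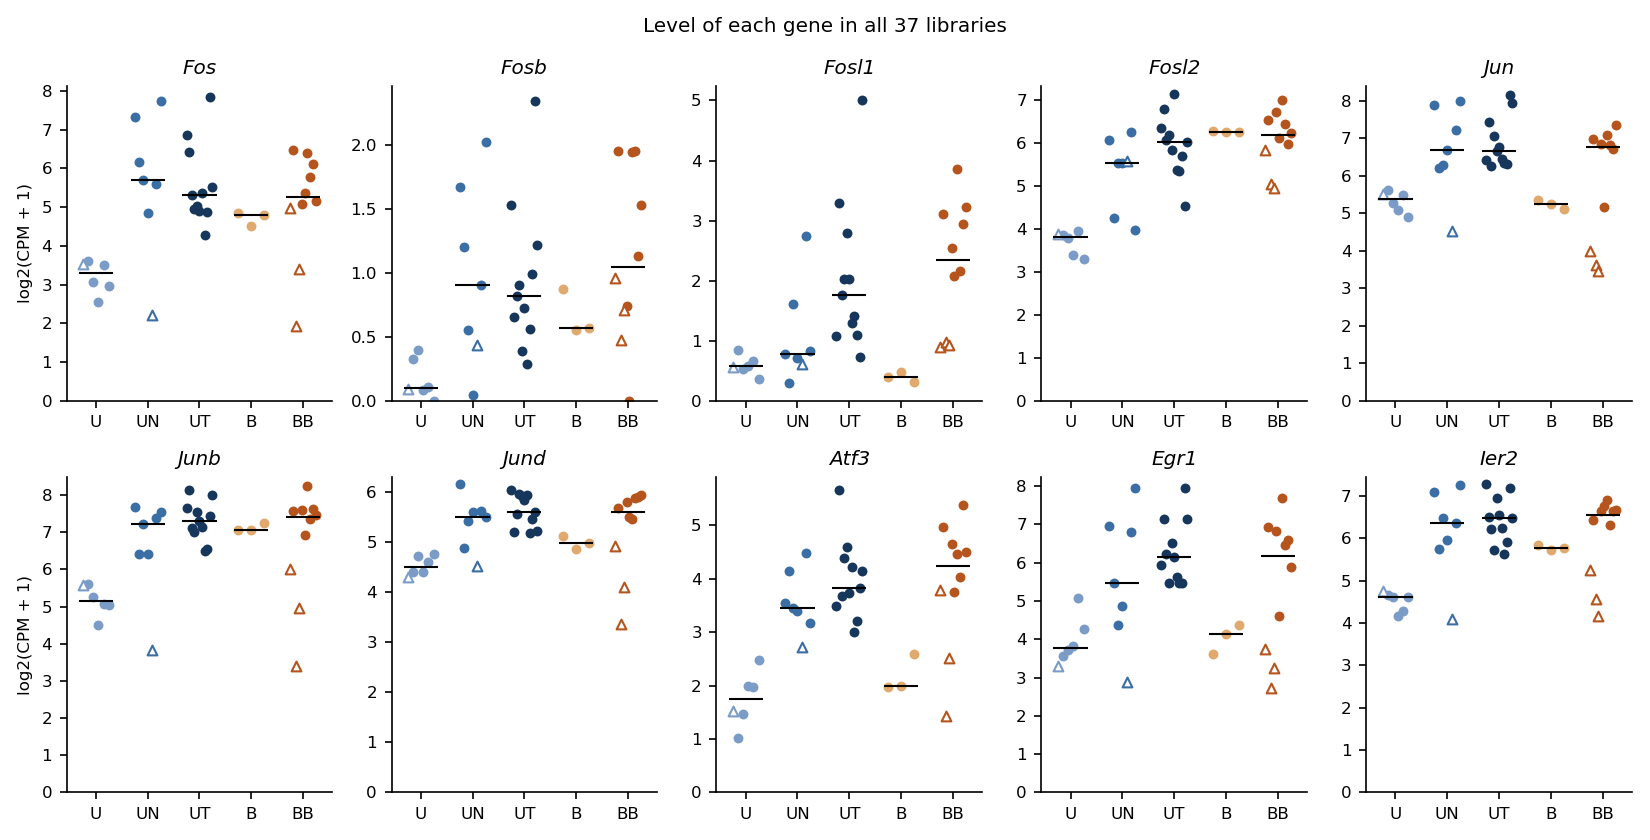
Level of the 10 genes in each of the 37 libraries as log2(CPM + 1), with 1 point per library, a line at the group median and open triangles for the 5 libraries of RIN under 5. For Fos the 6 U libraries sit between 4.83 and 11.2 CPM, below all 11 UT libraries, and the low-RIN libraries UN 6 and BB 3 are the lowest of UN and BB.

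The first question was how the ureter of the noncancerous side after BBN compared with the untreated ureter. Of the 10 genes, 8 passed as higher in UN, set against U, at an adjusted p under 0.1 and at least 2-fold (edgeR's quasi-likelihood test, Benjamini-Hochberg over 15658 genes), and 0 were lower, while 12.5% of all genes tested were called higher and 1.21% lower. The largest differences were those of Fos (log2 fold change 3.19 ± 0.70 SE, 9.13-fold, adjusted p = 0.0053) and Fosb (3.07 ± 0.85, adjusted p = 0.020), the partners that AP-1 gains on stimulation. Egr1 (2.25 ± 0.61), Atf3 (2.15 ± 0.44), Fosl2 and Ier2 (both 1.82, SE 0.36 and 0.35), Junb (1.68 ± 0.36) and Jun (1.61 ± 0.40) followed. The median over the 10 genes was 1.82, against 0.13 over all genes tested.

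Fos was at 8.51 ± 2.54 CPM (SD, n = 6) in U, where the lowest library was at 4.83, the median at 8.90 and the highest at 11.2 CPM. In UN, Fos ran from 3.64 CPM in UN 6 through a median of 51.0 to 214 CPM in UN 9. The groups overlapped through UN 6 alone, the library of low RIN, and without it UN ran from 27.8 to 214 CPM (mean 95.0 ± 74.1, n = 6). The same library was the lowest of UN for Jun, Junb, Jund, Atf3, Egr1 and Ier2 as well. With all libraries, every UN library lay above every U library for 2 genes, Fosl2 and Atf3, and 2.09% of genes tested did so; without UN 6 and U 1R this held for 7 genes (Fos, Fosl2, Jun, Junb, Jund, Atf3 and Ier2) and for 5.92% of genes tested.

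Junb, a Jun protein induced with Fos, was at 36.3 ± 9.9 CPM in U and at 126 ± 68 CPM in UN (n = 6 and 7), with 13.3 CPM in UN 6 and 83.6 to 203 CPM in the other 6. Fosl2, a Fos protein of slower kinetics, ran from 8.79 to 14.6 CPM in U and from 14.8 CPM in UN 9 to 74.7 CPM in UN 7, so its groups lay side by side without overlap. Atf3 ran from 1.02 to 4.56 CPM in U and from 5.56 to 21.5 CPM in UN. Egr1, which drives wound and growth programs, was at a median of 12.7 CPM in U (highest 32.5) and 43.7 CPM in UN (6.42 to 248), and its groups overlapped at several libraries. Fosb was at or below 0.319 CPM in U, with 0 reads in U 3L, where a count of 0 allows up to 0.195 CPM, so its fold change depends on very few reads.

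Jund and Fosl1 did not pass. Jund, the Jun gene that is expressed without stimulation, was higher in UN at an adjusted p of 0.0031 in edgeR's test, but its difference was 0.87 ± 0.18 on the log2 scale (1.83-fold), under the 2-fold limit. Fosl1, a Fos gene known from invasive carcinomas, gave 1.38 ± 0.82 (adjusted p = 0.27), and its UN values ran from 0.228 CPM in UN 2 to 5.68 CPM in UN 7, around the U range of 0.293 to 0.797 CPM. Without UN 7 the Fosl1 difference was 0.68 ± 0.81. All 8 calls were kept when any of the 24 ureter libraries was left out, though Egr1 fell to 1.58 ± 0.54 without UN 9, and Fosb lost its call with mouse as a random effect (2.42, adjusted p = 0.14).

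**Figure D2:**
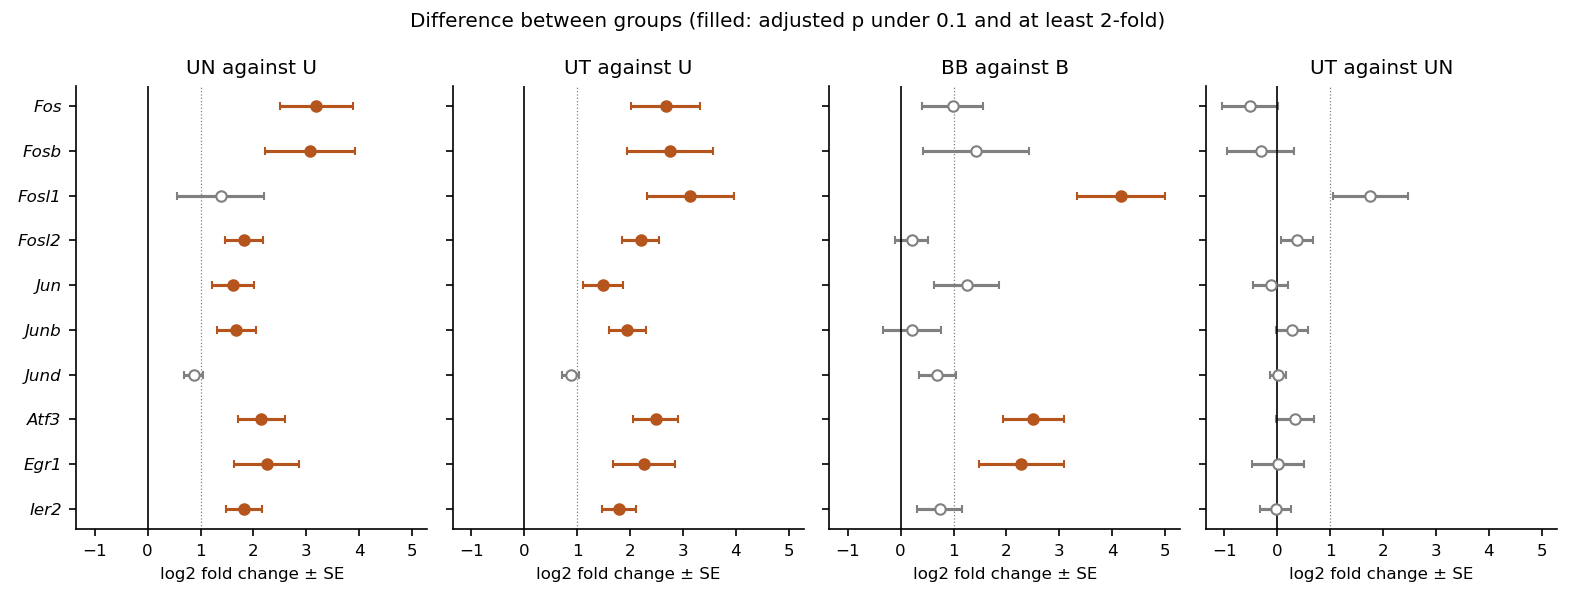
Log2 fold change of each gene in 4 comparisons with its standard error (edgeR), filled where the adjusted p was under 0.1 and the change at least 2-fold (dotted line: 2-fold). Filled points number 8 for UN against U, 9 for UT against U, 3 for BB against B and 0 for UT against UN, and Fosl2 and Junb lie at 0.21 in the bladder.

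Against the same untreated ureters, the cancerous side held 9 of the 10 genes higher and 0 lower (18.7% of all genes tested were called higher and 12.3% lower). The median over the 10 genes was 2.23, against 0.11 over all genes. With all libraries Fosl1 was the highest by fold (3.14 ± 0.82, 8.83-fold, adjusted p = 0.0039; 2.25 ± 0.62 without UT 10), followed by Fosb (2.76 ± 0.81), Fos (2.68 ± 0.65), Atf3 (2.49 ± 0.43), Egr1 (2.26 ± 0.58), Fosl2 (2.203 ± 0.346), Junb (1.95 ± 0.35), Ier2 (1.79 ± 0.33) and Jun (1.49 ± 0.37). Jund, at 0.88 ± 0.16, again stood under the 2-fold limit (adjusted p = 0.00028 in edgeR's test). UT and UN share the U libraries as controls, so the resemblance of their values is not independent.

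Every UT library lay above every U library for 8 genes, all but Fosb and Fosl1, as it did for 14.9% of genes tested. Fos ran from 18.5 CPM in UT 7 through a median of 38.6 to 227 CPM in UT 9, Jun from 75.9 to 284 CPM against 28.8 to 48.3 CPM in U, and Ier2 from 48.6 to 154 CPM against 16.8 to 25.9 CPM. Fosl1 ran from 0.661 CPM in UT 9 through a median of 2.40 to 31.1 CPM in UT 10, and its SD over UT, 8.84 CPM, exceeded its mean. The mean of Fosl1 in UT, 5.50 CPM, lay above 8 of the 11 libraries, and only UT 10, UT 2 (8.79 CPM) and UT 5R (5.96 CPM) lay above it. The Fosl1 call was lost with RIN as a covariate (1.65, adjusted p = 0.12), and the other 8 calls held in all 12 alternatives and with each library left out.

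Markers of other cells moved with these differences. Of the neutrophil markers, 7 of 7 tested (9 listed) were higher in UN than in U, among them S100a8 (5.08 ± 1.15), and their summed level was 11.7 to 24.5 CPM in U, 66.1 to 557 CPM in UN and 47.4 to 642 CPM in UT. Of 9 macrophage markers, 5 were higher in UN (637 to 1147 CPM summed in U, 369 to 8635 CPM in UN and 1046 to 5100 CPM in UT). In UT, 8 of 10 smooth muscle markers were lower than in U (387 to 2640 CPM against 1907 to 3521 CPM), as were 8 of 8 adipocyte markers (58.6 to 40544 CPM against 47031 to 73914 CPM). Of the T cell markers, 7 of 8 tested were higher in UT, and of the kidney tubule markers 5 of 5 tested (2 with DESeq2). The kidney tubule sum ran from 2.37 to 2655 CPM in UT, the highest in UT 4, against 0.255 to 10.7 CPM in U. Its UT median, 4.77 CPM, lay inside the U range. Of 15 urothelium markers, 3 were higher and 1 lower in UN, and 7 were higher and 4 lower in UT. Of 8 fibroblast markers 1 was higher in UN and 3 in UT, and of 7 endothelium markers 0 were called in UN and 1 was lower in UT. The neutrophil count in UN was 4 without libraries of RIN under 5 and 1 with mouse as a random effect, where 1335 of 15735 and 751 of 15658 genes were called higher. The random effect also left 1 T cell, 1 kidney tubule and 3 higher urothelium markers in UT. No marker of these lists that the table holds was at 0 in every library of a ureter group, and the part of these cells in the AP-1 differences was not tested.

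Between both sides of BBN-treated mice, the question was whether the cancerous ureter differed from the noncancerous one. In edgeR's test, 0 of the 10 genes passed in either direction, while 1.32% of genes tested were called higher and 4.2% lower, and of all 15658 genes 3969 had an unadjusted p under 0.05. These genome-wide calls, 206 higher and 658 lower, fell to 2 and 1 without the libraries of RIN under 5, to 0 and 0 with RIN as a covariate and to 0 and 0 when UT and UN were fitted without U (885 and 2806 genes with an unadjusted p under 0.05 in the last 2 of these edgeR fits). Fosl1 had the largest difference (1.76 ± 0.71, 3.39-fold, adjusted p = 0.14), and the others lay between -0.51 for Fos and 0.38 for Fosl2, with standard errors of 0.15 to 0.63. Jund was the closest to 0 (0.01 ± 0.15), and Egr1 (0.01 ± 0.50) was at 0.68 ± 0.47 without UN 9. At an unadjusted p under 0.05 there was 1 gene, Fosl1, and DESeq2 called it higher in UT (1.81, adjusted p = 0.061). Of the marker lists, 7 of 10 smooth muscle markers and 1 of 15 urothelium markers were lower in UT than in UN, and 2 of 5 kidney tubule markers tested were higher. None of these 10 marker calls was made without the libraries of RIN under 5, with RIN as a covariate, with limma-trend, with mouse as a fixed block or random effect, or with UT and UN fitted without U, and their part in these values was not tested.

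The value of Fosl1 turned on single libraries. It was 1.89 (adjusted p = 0.081, where 2.8% of genes were called higher) without UT 9, the lowest UT library, a fit that leaves 10 UT libraries, 2.47 (adjusted p = 0.041) without UN 7, the highest UN library, and 0.87 (adjusted p = 0.35) without UT 10. With RIN as a covariate it was 0.42 (adjusted p = 0.91), and with mouse as a replicate block over the 7 mice that gave both sides it was 0.78 ± 0.72 (adjusted p = 0.81).

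Within those 7 mice, Fosl1 was higher on the cancerous side in 5 and lower in 2, with a mean difference of 0.57 ± 1.34 in log2(CPM + 1) (SD, n = 7 mice; two-sided exact sign-flip permutation test, p = 0.30, adjusted over the 10 genes 0.62). Fosl1 in mouse 2 was at 0.228 CPM in UN and 8.79 CPM in UT, whereas in mouse 7 it was at 5.68 CPM in UN and 1.67 CPM in UT. Fos lay higher on the cancerous side in 4 of 7 (mean difference 0.21 ± 1.41, exact p = 0.86) and Egr1 in 5 (0.64 ± 1.53, exact p = 0.30). The smallest p that 7 pairs can give is 0.016, and adjusted p-values over the 10 genes ran from 0.62 to 0.86. Without mouse 6 (UN 6) and mouse 2 (UN 2), the mean difference over the other 5 mice was 0.07 ± 0.95 for Fosl1, -0.40 ± 0.58 for Fos and 0.02 ± 1.29 for Egr1 (exact p = 0.69, 0.25 and 0.94, where 0.0625 is the smallest possible).

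In mouse 9, both ureters held the highest or lowest level of their group for 5 of the 10 genes. Its UT and UN libraries were the highest of their groups for Fos (227 and 214 CPM), Fosb (4.08 and 3.07 CPM), Jun (284 and 254 CPM) and Egr1 (248 CPM in both). The same libraries were the lowest of their groups for Fosl2 (22.2 and 14.8 CPM), and UT 9 was the lowest of UT for Fosl1 (0.661 CPM). For Jun the next libraries were close (UT 10 at 246 and UN 1 at 236 CPM). UT 9 and UN 9 were at neither end of their groups for Junb (173 and 187 CPM), Jund (47.8 and 44.1 CPM) and Atf3 (13.1 and 8.009 CPM). The bladder of mouse 9, BB 9, was not the highest of BB for Fos (68.2 CPM), Fosb (1.19 CPM), Jun (104 CPM) or Egr1 (95.3 CPM). For Fosl2 (62.2 CPM) it was the lowest of the 7 BB libraries of RIN 5 or more, and for Atf3 (40.8 CPM) the highest of BB. UT 9 also had the lowest summed urothelium markers of UT (1723 CPM) and the highest summed adipocyte markers (40544 CPM), and their part in these levels was not tested. All 8 calls of UN against U and all 9 of UT against U were kept without mouse 9.

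**Figure D3:**
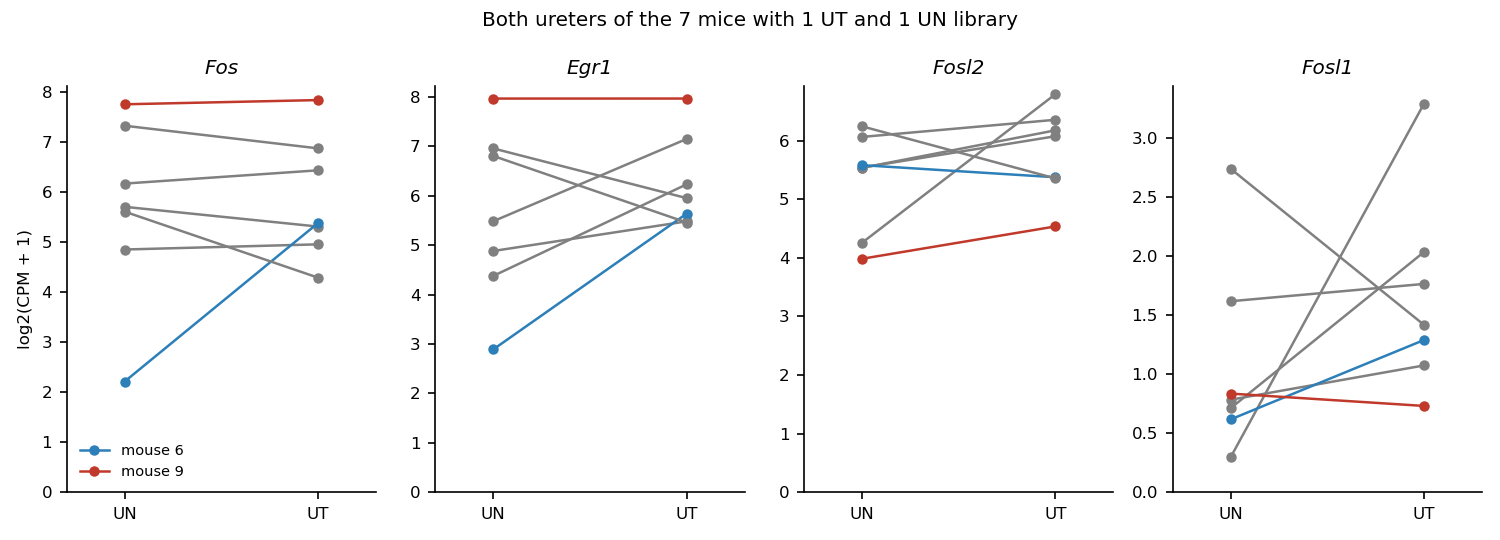
Level of Fos, Egr1, Fosl2 and Fosl1, as log2(CPM + 1), in UN and UT of the 7 mice that gave 1 library of each, joined by mouse, with mouse 9 in red and mouse 6, whose UN library had RIN under 5, in blue. Mouse 9 is the highest on both sides for Fos and Egr1 and the lowest on both sides for Fosl2.

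In the bladder, BBN was set against tap water in 10 against 3 libraries. Of the 10 genes, 3 were higher in BB and 0 lower (7.61% of 18050 genes tested were called higher and 5.74% lower), with a median of 1.12 over the 10 genes against 0.25 over all genes. The share of all genes called higher in BB depended on the fit, and 7.61% is that of the main edgeR fit. The genes called higher numbered 4646 of 18050 with DESeq2, 4118 of 18959 with all 37 libraries in 1 fit and 1108 of 18050 with limma-trend. With the libraries of mice 1 to 7 and the untreated mice alone they numbered 3100 of 17507. Fosl1 showed the largest difference of any member in any comparison (4.16 ± 0.83, 17.9-fold, adjusted p = 0.0049). It was at 0.314, 0.400 and 0.241 CPM in B 1, B 2 and B 3, and from 0.868 to 13.6 CPM in BB with a median of 4.15 CPM, so that the groups did not overlap (4.99% of genes tested lay wholly above B). Atf3 was higher by 2.51 ± 0.57 (adjusted p = 0.012), with 2.93, 2.997 and 5.05 CPM in B and 1.69 to 40.8 CPM in BB. Egr1 passed narrowly (2.28 ± 0.80, adjusted p = 0.092), with 11.2, 16.7 and 19.7 CPM in B and a median of 72.6 CPM in BB. Its call was lost without BB 2, BB 5 or BB 9 and without any of the 3 B libraries (adjusted p up to 0.29). It was also lost with limma-trend (adjusted p = 0.15), with no filter on low counts (0.13) and with the libraries of mice 1 to 7 and the untreated mice alone (0.101). In the bladder, the fit without mouse 9 is the fit without BB 9 (0.105). The Atf3 call was lost without B 1 (adjusted p = 0.10).

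The other 7 genes did not pass in the bladder. Fos gave 0.98 ± 0.58, Jun 1.25 ± 0.62, Fosb 1.42 ± 1.01, Ier2 0.74 ± 0.42 and Jund 0.69 ± 0.35, whereas Fosl2 and Junb gave 0.21 ± 0.31 and 0.21 ± 0.56. Jun passed with DESeq2 (1.28, adjusted p = 0.056) and in edgeR with RIN as a covariate (1.55, adjusted p = 0.017). These fits called 4646 and 1867 of 18050 genes higher. Fosl2 was at 76.7, 75.7 and 75.5 CPM in B, inside the BB range of 29.9 to 127 CPM. Junb was at 132, 134 and 151 CPM in B, inside the BB range of 9.56 to 300.0 CPM.

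The 3 BB libraries of low RIN lay below all 7 other BB libraries for 8 of the 10 genes, all but Fosb and Atf3, as they did for 29.2% of genes tested. Jun was at 10.1 to 14.8 CPM in these 3 and at 34.9 to 161 CPM in the other 7, and Fosl1 at 0.868 to 0.984 CPM against 3.21 to 13.6 CPM. Without them, 6 of the 10 genes were called higher (11.3% of genes tested were): Fosl1 (4.52 ± 0.57), Atf3 (2.75 ± 0.36), Egr1 (2.70 ± 0.51), Jun (1.65 ± 0.29), Fos (1.26 ± 0.34) and Ier2 (1.02 ± 0.29). Fosl2 (0.31 ± 0.25, adjusted p = 0.41) and Junb (0.55 ± 0.25, adjusted p = 0.15) still did not pass in edgeR's test. In BB, 4 of 7 neutrophil markers tested were higher than in B (18.9 to 252 CPM summed against 8.82 to 11.1 CPM; Ngp was at 0 in all B libraries), 6 of 15 urothelium markers were lower and 1, the basal keratin gene Krt14, was higher (8.08 ± 1.32; the list summed to 2013 to 19241 CPM in BB and 24859 to 26187 CPM in B). Of the other lists, 4 of 8 fibroblast, 1 of 10 smooth muscle and 1 of 7 endothelium markers were lower and 1 of 9 macrophage markers was higher. The part of these cells in the bladder values was not tested.

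**Figure D4:**
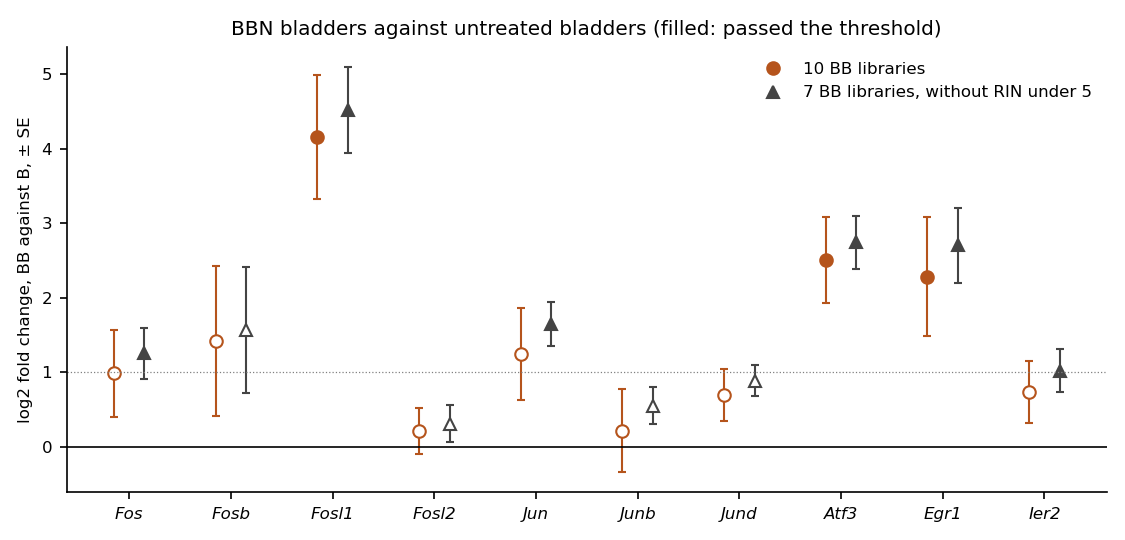
Log2 fold change of BB against B with its standard error for each gene, over all 10 BB libraries (circles) and over the 7 BB libraries of RIN 5 or more (triangles), filled where the threshold was passed. Filled symbols number 3 with all libraries and 6 without the low-RIN libraries, and Fosl2 and Junb are open in both.

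The untreated organs already differed in some of these genes. Fosl2 was lower in U than in B by 2.28 ± 0.33 on the log2 scale (12.1 ± 2.4 CPM, n = 6, against 76.0 ± 0.6 CPM, n = 3, adjusted p = 8.0e-05), in every alternative and with each library left out. Junb was lower by 1.57 ± 0.54 (36.3 ± 9.9 against 139 ± 11 CPM, adjusted p = 0.055), a call that was lost without any of the 3 B libraries. It was also lost with limma-trend (adjusted p = 0.12), with RIN as a covariate (-1.09, adjusted p = 0.11) and with mouse as a random effect, the replicate block (-1.61, adjusted p = 0.11). Of all 18786 genes tested here, 7.68% were called lower in U and 7.24% higher. Fos (-1.22 ± 0.67; -1.27 and called lower, adjusted p = 0.075, without libraries of RIN under 5), Fosb (-1.75 ± 1.03) and Ier2 (-0.92 ± 0.42) had lower values in U without passing, Fosl1 had a higher one (1.07 ± 0.79), while Jun (0.46 ± 0.58), Egr1 (0.38 ± 0.81), Atf3 (-0.15 ± 0.51) and Jund (-0.10 ± 0.29) were closer to 0. By group mean, the order for Fosl2 was B, BB, UT, UN and U, and BB and B did not differ beyond their spread. Of 15 urothelium markers 10 were lower in U than in B, and 8 of 8 adipocyte markers were higher (47031 to 73914 CPM summed against 453 to 2439 CPM). In the same comparison 4 of 10 smooth muscle, 3 of 8 fibroblast and 1 of 8 kidney tubule markers were lower and 2 of 7 endothelium markers higher; their part in these differences was not tested.

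The difference between the BBN effects of both organs was tested itself, as UN minus U less BB minus B. Fosl2 was the 1 of 10 genes that passed (1.58 ± 0.41, adjusted p = 0.054, where 1.51% of genes were called higher): it was 1.82 higher after BBN in the ureter and 0.21 in the bladder. The call was lost with limma-trend (1.49, adjusted p = 0.10) and without U 2L, U 3L or any B library (adjusted p from 0.10 to 0.17). Fosl1 pointed the other way (-2.81 ± 0.98, adjusted p = 0.19). It was called lower without UN 7 (-3.55 ± 0.89, adjusted p = 0.046), and without the libraries of RIN under 5 it was called lower (-3.08 ± 0.92, adjusted p = 0.070) while Fos (2.19 ± 0.64, adjusted p = 0.065) and Junb (1.37 ± 0.36, adjusted p = 0.035) joined Fosl2 among those called higher, where 3.71% of genes were higher and 1.73% lower. Between the BBN-treated tissues, Fosl1 was the 1 gene of the 10 that passed, lower in UN than in BB by 1.74 ± 0.53 (adjusted p = 0.026, and -2.45 ± 0.52 without UN 7; 8.03% of genes called lower and 8.91% higher) and lower in UN in 6 of the 7 mice with both (mean difference -1.03 ± 1.21 in log2(CPM + 1), exact p = 0.078, adjusted over the 10 genes 0.63). In the 3 of these mice without a library of RIN under 5 it was lower in 3 (-2.01 ± 0.85, exact p = 0.25, the smallest that 3 pairs allow). Fosl2 reached an adjusted p of 0.050 in that comparison with -0.71 ± 0.24, under 2-fold. The remaining 8 genes lay between -0.55 for Atf3 and 0.98 for Fos there, with Fosb, Junb, Jund, Ier2, Egr1 (0.33 ± 0.55, and -0.36 ± 0.53 without UN 9) and Jun between them. In the test of the BBN effects, Fos (2.197 ± 0.819), Fosb (1.63 ± 1.25), Junb (1.45 ± 0.67) and Ier2 (1.08 ± 0.52) had values above 1 without passing with all libraries, and Jun, Jund, Egr1 (-0.74 without UN 9) and Atf3 lay between -0.39 and 0.34. Of the marker lists, 8 of 9 macrophage, 6 of 7 endothelium and 8 of 8 adipocyte markers were higher in UN than in BB and 5 of 10 smooth muscle markers lower, and their part was not tested.

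Per kilobase of exon, Junb and Ier2 were the most abundant members in each BBN-treated group, with group medians of 53.5 to 73.6 CPM per kb, followed by Jun at 31.1 to 33.9 and Jund at 26.4 to 28.7 CPM per kb. Fos was at medians of 15.8 to 21.7 CPM per kb in these groups. Fosb, at 0.123 to 0.171 CPM per kb, and Fosl1, at 0.356 to 2.04 CPM per kb, were the least abundant. In U the order by median began with Ier2 (15.4), Junb (15.2), Jund (13.0) and Jun (12.8 CPM per kb), values that lay close together.

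Over the 37 libraries, the genes most like Fos in log2(CPM + 1) among 18958 others were Ier2 (Pearson's r = 0.90), Junb (0.87), Zfp36 (0.86), which encodes an mRNA decay factor, Egr1 (0.83) and Dusp1 (0.82), which encodes a MAP kinase phosphatase. Jun ranked 6, Jund 8, Fosb 9 and Atf3 42, whereas Fosl2 (r = 0.43) ranked 3271 and Fosl1 (r = 0.36) ranked 4969. The genes most like Fosl1 were Sh2d5 (0.94), BC030867 (0.91), Troap (0.91), Chek1 (0.90), a cell cycle checkpoint kinase gene, and Tnfrsf23 (0.90). Among the members, Atf3 (r = 0.72) was the nearest to Fosl1, at rank 675. Differences between the groups enter these correlations. The libraries also share mice and include those of low RIN, so these values describe this set.

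Of 20 other immediate early genes, most of which encode transcription factors, 18 were tested. Of these, 12 were higher in UN than in U (12.5% of all genes), 13 in UT than in U (18.7%) and 3 in BB than in B (7.61%), with medians of 1.501, 1.66 and 0.99 against 0.13, 0.11 and 0.25 over all genes. Egr3 (2.80 ± 0.92), the nuclear receptor gene Nr4a1 (2.72 ± 0.59) and Egr2 (2.56 ± 0.54) led in UN. Egr2 (3.07 ± 0.53), Arc (2.97 ± 0.68), which encodes a cytoskeleton-associated protein, and Ier3 (2.90 ± 0.35), which encodes a regulator of cell survival, led in UT. In BB the 3 were Arc (4.63 ± 1.10), Ier3 (2.69 ± 0.52) and Klf4 (2.12 ± 0.47). Of 12 further AP-1 and partner bZIP genes, 4 were higher in UN, led by Maff (2.40 ± 0.41) and Batf (2.0 ± 0.5), 6 in UT and 1, Atf4 (1.14 ± 0.35), in BB. Maff stands on both lists.

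Of 18 genes that dampen immediate early signaling, 10 were higher in UN, 11 in UT and 8 in BB (12.5%, 18.7% and 7.61% of all genes), and the others did not pass. The cytokine signaling inhibitor gene Socs3 (2.97 ± 0.44 in UN, 3.69 ± 0.44 in UT and 3.19 ± 0.83 in BB) and the phosphatase genes Dusp2 (2.59 ± 0.46 in UN) and Dusp5 (2.44 ± 0.52 in UN) led. In BB, Dusp2 (2.41 ± 0.86) and the pseudokinase gene Trib1 (2.27 ± 0.44) came next to Socs3. Of 20 upstream kinase and SRF partner genes tested in the ureter, 2 were higher in UN (Mapk13, 1.63 ± 0.62, and Mapk11, 1.36 ± 0.48) and 3 in UT (these and Elk3, 1.46 ± 0.22). In BB 0 of 21 were, and 1 had an unadjusted p under 0.05 in edgeR. All genes were called higher at 12.5%, 18.7% and 7.61% in edgeR. DESeq2 called 2 of the 21 higher in BB, where it called 4646 of all 18050 genes higher. Of 10 heat shock genes, 0 were higher in UN, UT or BB in edgeR (3, 5 and 1 had an unadjusted p under 0.05 in either direction, and DESeq2 called 1 higher in BB), and Hsph1 was lower in UN (-1.53 ± 0.46) and UT (-1.47 ± 0.40).

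Of 20 genes known as AP-1 targets, 16 were higher in UN than in U (median 2.46), 18 in UT than in U (median 2.97) and 12 in BB than in B (median 1.97), where 1, the matrix gene Tnc, was lower (-1.38 ± 0.46). All genes were called higher at 12.5%, 18.7% and 7.61% in these comparisons. With mouse as a random effect the UN count of this list was 10, where 751 of all 15658 genes were called higher. Without libraries of RIN under 5 the BB count of the other immediate early genes was 6, where 11.3% of all genes were called higher. In UN the matrix protein gene Spp1 (6.88 ± 1.73), the metalloproteinase inhibitor gene Timp1 (5.74 ± 0.90) and the EGFR ligand gene Areg (5.35 ± 0.99) led. In UT these were Spp1 (10.01 ± 1.95), Ptgs2 (5.99 ± 1.07), which encodes the inducible cyclooxygenase, and Timp1 (5.94 ± 0.89). Areg (7.22 ± 0.85), Mmp10 (5.83 ± 1.80) and Ptgs2 (5.22 ± 0.93) led in BB. Between UT and UN, 1 of the 20, Plau, which encodes urokinase, was called higher (1.198 ± 0.418, adjusted p = 0.099 in edgeR's test; 1.32% of all genes were called higher), and it was not called with RIN as a covariate, with mouse as a fixed block or with UT and UN fitted without U, where no gene was. Neutrophils and macrophages also express several of these genes, Spp1 and Ptgs2 among them.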

How the data were processed

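Bulk RNA-seq of 37 libraries was analysed. The authors prepared libraries with SMARTerHT and Nextera XT kits, sequenced paired reads, mapped them to GRCm38/mm10 and deposited a table of estimated counts by gene symbol, without normalization, in which 21.1% of nonzero values are fractional. The submitters' processing notes name TopHat2 2.1.1 and Cuffdiff 2.2.1. The counting step and its use of strand are not given in the sources used here. How reads shared between genes were divided is not given either.

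Here the values were rounded to whole numbers and tested by the quasi-likelihood method of edgeR 4.0.16 (R 4.3.3) after filterByExpr and TMM scaling, and a gene was called at a change of 2-fold or more with FDR under 0.1, the study's thresholds. The fits covered the 24 ureter libraries (UT, UN, U), the 13 bladder libraries (BB, B) and 26 libraries of UN, U, BB and B for the contrasts between organs. Levels are CPM of the library total; SE is the absolute log2 fold change divided by the square root of the F statistic. Pairs within mice were tested by exact sign-flip permutation on log2(CPM + 1). The 6 U libraries came from 3 mice, and tests that treat them as separate samples measure the spread between libraries. UT and UN with the same number came from the same mouse; after subtracting each group's mean, the median correlation was -0.02 for the 7 same-mouse pairs and 0.00318 for the 70 others. No pair of libraries of the same group agreed within sampling noise, and pairs across groups were not checked.

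The 10 genes and all gene lists were chosen with earlier results of these data known. Text names the 10 genes in each comparison, up to 3 called genes of the largest change from each other list, and the 5 genes most like Fos and Fosl1 by Pearson's r; 1 gene that this rule would name is not reported here. Marker lists cover urothelium, smooth muscle, fibroblast, neutrophil, macrophage, T cell, endothelium, adipocyte and kidney tubule. Alternatives were RLE normalization, DESeq2 1.42.0, limma 3.58.1 (limma-trend with a prior count of 2, and voom with mouse as a random effect), other filters, RIN as a covariate, fits without the 5 libraries of RIN under 5 (RIN as the authors list it), mouse as a fixed block, a single fit of all 37 libraries, 10 UT libraries (without UT 9, the number in the study's legends), the libraries of mice 1 to 7 with the untreated mice, each library left out, and, chosen after seeing the data, mouse 9 left out, and pairs without low-RIN libraries or UN 2. The fits were tested on simulated data. Promoter windows are from RefSeq; Fosl1, Ier2 and Egr1 have none here.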

Additional observations from a re-analysis of the deposited data

Results flagged for a closer look

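Over the 30 combinations of the 10 genes with UN, U and BB, 1 library stood far from the rest of its group, and chance alone marks about 1 in 20. The genes share libraries, so the combinations are not independent, and UT and B were not part of this check. Junb in UN 6 was at 3.83 in log2(CPM + 1), where the nearest UN library, UN 2, was at 6.40. UN 6 had RIN under 5 and the lowest total of UN, and the part of either in this value was not tested. Without the libraries of RIN under 5, Junb stayed higher in UN than in U.

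The effect of BBN on Fosl2 differed between ureter and bladder by 1.58 on the log2 scale in the test of the difference itself (edgeR, adjusted p = 0.054), a call that was lost with limma-trend (adjusted p = 0.10) and without U 2L, U 3L or any B library. It was larger in the ureter, where the untreated level was 12.1 CPM, than in the bladder, where it was 76.0 CPM.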

How the results depend on the processing

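For UN against U and UT against U, the counts of 8 and 9 genes called higher stayed within 1.5-fold under each alternative run. For UT against UN the count of 0 became 1 (Fosl1) with DESeq2 and with 10 UT libraries (all but UT 9), and ran from 0 to 1 with single libraries left out. For BB against B the 3 genes called higher became 6 without libraries of RIN under 5, and ran from 1 to 4 with single libraries left out. For U against B the 2 genes called lower became 1, by the loss of Junb, with limma-trend, with RIN as a covariate and with the replicate block of mouse as a random effect, and ran from 1 to 2 with libraries left out. For UN against BB, 0 genes called higher became 2 (Fos and Jun) with RIN as a covariate, and ran from 0 to 1 with libraries left out (Fos at 1.12, adjusted p = 0.050, without UN 6). For the BBN difference between organs, 1 gene called higher (Fosl2) became 0 with limma-trend and 3 without libraries of RIN under 5, and ran from 0 to 2 with libraries left out; 0 called lower became 1 (Fosl1) with DESeq2, without libraries of RIN under 5 and with RIN as a covariate, and ran from 0 to 1 with libraries left out. Over all genes, the 206 higher and 658 lower calls of UT against UN became 411 and 980 with DESeq2, 46 and 9 with limma-trend, 438 and 1245 without UT 9, 2 and 0 with mouse as a random effect, and 0 with mouse fixed (623 at an unadjusted p under 0.05). The replicate block with mouse fixed gave 0 calls for UT against UN, and the blocks changed no call other than those given here and that of Fosb. The cause of these changes was not tested. The median of all genes in BB against B was 0.25 with TMM and 0.35 with RLE, so bladder differences near 0.21 lie at that shift, and it was -0.14 and -0.28 for UN against BB. TMM scaling lowered the B levels of Fosl2, Jun, Junb, Jund and Ier2 by more than 1 SD. No called value changed sign. With 3 B libraries, and with Fosb and Fosl1 at or below 1 CPM in untreated tissue, differences of these genes are known least precisely.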
